A study of Mus musculus with 12 samples.

Results

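The genes described here encode the receptors for glutamate and GABA, the main excitatory and the main inhibitory transmitter of the brain. They were the 47 of the 55385 genes of the expression table whose symbols begin with Gria, Grid, Grik, Grin, Grm, Gabr or Gabbr and name a receptor subunit, 26 for glutamate and 21 for GABA. They were measured by RNA sequencing of the brain of 12 male wild-type C57/BL6J mice, 3 in each of 4 groups that had been bought at an age of 8 weeks. The C_W group was given water and was not stressed, and the C_O group was given krill oil, a marine oil rich in omega-3 phospholipids, without stress. The MS_W group was given water and underwent chronic unpredictable mild stress (CUMS), in which changing mild stressors are applied to produce depression-like behavior, and the MS_O group received CUMS and krill oil. Krill oil was given by gavage at 200 mg/kg per day for 5 weeks, CUMS lasted 4 weeks, and the control for the oil was water and not another oil. Each mouse gave 1 library, named by its group and mouse number, and the 3 mice per group were taken from 8. In the text, the 3 values of a group follow the order of mice 1, 64 and 70 in C_W, 15, 30 and 72 in C_O, 31, 75 and 95 in MS_W, and 13, 46 and 78 in MS_O.

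Glutamate acts on ion channels of the AMPA (Gria), kainate (Grik) and NMDA (Grin) classes, each an assembly of subunits, on the related delta receptors (Grid), and on G-protein coupled metabotropic receptors (Grm). GABA opens GABA-A receptors, chloride channels built mostly of alpha (Gabra), beta (Gabrb) and gamma (Gabrg) subunits in which delta, epsilon, theta or rho subunits (Gabrd, Gabre, Gabrq, Gabrr) can take part, and it activates the G-protein coupled GABA-B receptor, which needs Gabbr1 and Gabbr2 together. Subunits differ between brain regions: the alpha6 subunit Gabra6 is a hallmark of cerebellar granule cells, and Grin2b is prominent in the forebrain. The make-up of a receptor sets the time course of its current, where it sits and which drugs bind it.

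The libraries held 50912906 to 75678721 estimated counts, and levels are in FPKM, fragment counts corrected for transcript length and library size, which can be compared between genes. Although every label reads brain, the markers of brain regions set mice C_O72 and MS_W95 apart from the 10 other mice. Cbln3, a marker of cerebellar granule cells, was at 60.9 in C_O72 and 222 in MS_W95 but at most 0.196 in the others. The summed FPKM of 7 hindbrain and spinal cord markers was 73.9 and 27.2 in these 2 libraries, and all 7 markers were under 0.1 in each of the other 10. The sum of 8 markers of cortical excitatory neurons was 36.4 and 49.0 against 136 to 393. The summed FPKM of 6 cerebellar granule cell markers was 146 and 442 against 9.35 to 20.5, and that of 5 Purkinje cell markers 156 and 644 against 26.6 to 58.9. The hindbrain markers were thus at or near 0 in 10 of the 12 libraries, while of the 6 granule cell markers 1 and of the 5 Purkinje cell markers 0 were under 0.1 in all 10, and the main results are therefore also given without C_O72 and MS_W95, which leaves 2 mice each in C_O and MS_W.

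Receptor genes differed widely in level. Gabbr1, the subunit that binds GABA in the GABA-B receptor, had the highest mean FPKM over the 12 libraries (93.7), and its levels were 94.7, 91.1 and 92.0 in C_W, 99.1, 96.6 and 75.05 in C_O, 100.4, 103 and 98.7 in MS_W and 102, 82.9 and 89.1 in MS_O. The lowest value was that of C_O72, and each MS_W mouse was above each C_W mouse. Gria1, an AMPA receptor subunit, came next (63.9), followed by Grin1, the obligatory NMDA receptor subunit (47.9), and Gabbr2 (40.5), and among the others was the kainate receptor subunit Grik5 (37.2). The ranges of Gria1 (32.5 to 84.4), Grin1 (31.4 to 58.3) and Gabbr2 (19.7 to 60.2) overlapped, so their order varied between libraries. The GABA receptor genes together held 52.2% of the FPKM summed over the members and the glutamate receptor genes 47.8%. The 2 GABA-B genes alone held 20.1%, the 6 alpha genes 17.7% and the 4 AMPA genes 16.0%.

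**Figure D1:**
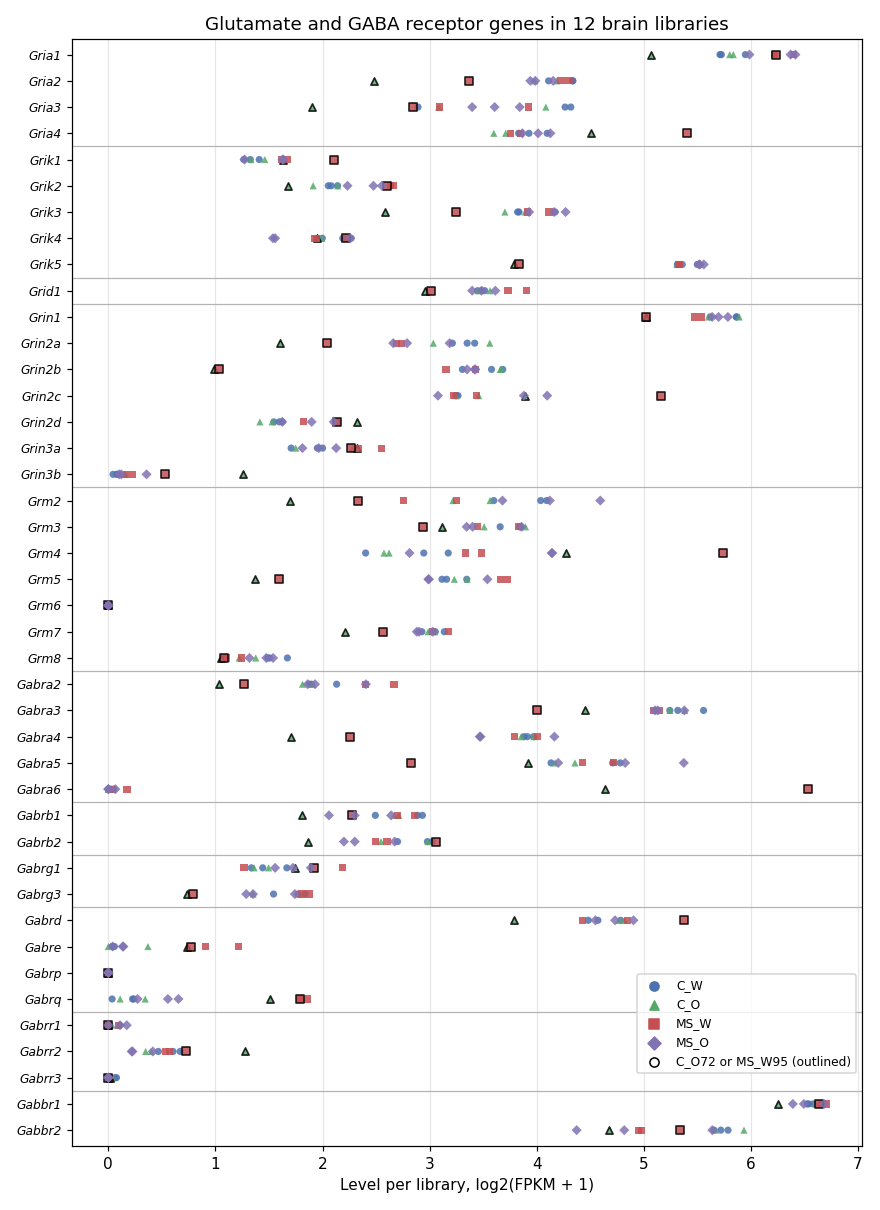
Level of the receptor genes reported here (rows, grouped by subfamily) in 12 brain libraries on the log2(FPKM + 1) scale, with 1 point per library, colour and shape for the group, and outlined points for C_O72 and MS_W95. In many rows both outlined points lie at an end, as for Grin2b at the low end and Gabra6 at the high end, while Gabre and Gabrq are high in the 3 MS_W libraries and in C_O72.

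At the other end, Gabrp, the pi subunit, was listed at 0.0001, the value given to genes without an estimate, in every library. Gabrr1 and Gabrr3, rho subunits best known from the retina, reached at most 0.127 and 0.0543, and Grm6, the metabotropic receptor of retinal ON bipolar cells, at most 0.00793. These 4 genes had a mean FPKM under 0.1 and were not tested. The other 43 were tested. Of these, Gabra6 passed the filter only through C_O72 and MS_W95, where it was high. Gabrr2, the third rho gene, was at 0.520, 0.382 and 0.592 in C_W, 0.320, 0.273 and 1.42 in C_O, 0.484, 0.445 and 0.651 in MS_W and 0.334, 0.169 and 0.163 in MS_O. It was highest in C_O72 and lowest in MS_O46 and MS_O78.

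Gabrq and Gabre, which encode the theta and epsilon subunits of the GABA-A receptor, had the smallest p-values of the 43 members between MS_W and C_W. Gabrq (ENSMUSG00000031344, mouse build mm10, chromosome X, 72825178 to 72842602, plus strand) had an FPKM of 0.179, 0.171 and 0.0247 in C_W and of 2.64, 2.44 and 2.47 in MS_W. In the krill oil groups it was at 0.0796, 0.270 and 1.86 in C_O and at 0.208, 0.574 and 0.470 in MS_O. All 3 MS_W mice were above all 9 others, and C_O72 was far above C_O15 and C_O30. Gabre (ENSMUSG00000031340, chromosome X, 72255999 to 72274803, minus strand) was at 0.0259, 0.0402 and 0.0276 in C_W, 0.0001, 0.292 and 0.668 in C_O, 1.33, 0.873 and 0.709 in MS_W and 0.0289, 0.102 and 0.0976 in MS_O. Again the 3 MS_W mice were the highest and C_O72 came next. MS_O46 and MS_O78 were above each C_W mouse, and MS_O13 was within the range of C_W. The estimated counts behind these low values were 11, 16 and 12 in C_W and 12, 32 and 30 in MS_O. The epsilon and theta subunits are known from hypothalamic and monoaminergic cell groups, and both genes were scarce in these libraries next to most other GABA-A subunit genes.

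These genes lie in a run of GABA-A subunit genes on chromosome X, in the order Gabre, Gabra3 and Gabrq, within 586604 bases. Gabra3 (ENSMUSG00000031343, 72432681 to 72656848, minus strand), the alpha3 gene between them, did not share their pattern: it was at 36.9, 46.1 and 38.9 in C_W, 36.9, 40.7 and 20.9 in C_O, 34.5, 33.0 and 15.1 in MS_W and 40.6, 34.02 and 33.4 in MS_O. Every MS_W mouse was below every C_W mouse for Gabra3 (limma, log2FC -0.62, SE 0.31, adjusted p = 0.504), with MS_W95 and C_O72 lowest of all. The windows of 250 bases before their RefSeq start sites (build GRCm38.p6) are shown because these neighbours parted in level. Capitals mark GGGCGG or its reverse complement CCGCCC, and TTGGC or GCCAA, and no 2 marked matches overlap. The Gabre window is chrX:72274722-72274971 (minus strand), the Gabra3 window chrX:72656920-72657169 (minus strand, the first of 2 starts in the RefSeq table) and the Gabrq window chrX:72824928-72825177 (plus strand).
Gabre: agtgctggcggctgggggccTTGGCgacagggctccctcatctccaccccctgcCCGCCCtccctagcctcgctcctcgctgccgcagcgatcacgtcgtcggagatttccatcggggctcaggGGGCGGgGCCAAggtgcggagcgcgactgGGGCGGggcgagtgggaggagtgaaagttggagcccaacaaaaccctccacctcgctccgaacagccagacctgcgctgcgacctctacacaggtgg
Gabra3: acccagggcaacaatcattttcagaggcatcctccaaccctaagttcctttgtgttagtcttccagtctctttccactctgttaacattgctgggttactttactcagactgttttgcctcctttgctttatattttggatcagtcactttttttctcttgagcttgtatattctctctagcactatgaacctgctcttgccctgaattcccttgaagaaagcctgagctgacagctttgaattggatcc
Gabrq: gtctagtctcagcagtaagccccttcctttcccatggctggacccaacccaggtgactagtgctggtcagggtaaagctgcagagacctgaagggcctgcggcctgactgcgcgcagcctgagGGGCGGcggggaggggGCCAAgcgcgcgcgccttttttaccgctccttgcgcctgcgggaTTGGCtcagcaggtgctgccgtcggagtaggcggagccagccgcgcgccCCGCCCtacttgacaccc
The Gabre and Gabrq windows were both rich in G and C (68.8% and 67.2%), with 21 and 19 CpG dinucleotides. The Gabra3 window held 42.4% G and C and 0 CpG, and the median over the 32851 promoters in the table was 52.4%. GGGCGG on either strand was found 3 times before Gabre, 2 times before Gabrq and not before Gabra3, and in 32.7% of all promoters. TTGGC on either strand was found 2 times each before Gabre and Gabrq and in 41.5% of all promoters. TATAAA on either strand was found 1 time before Gabra3 and in 12.4% of all promoters. These letters are descriptions and not shown to be bound by any factor in these mice.

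**Figure D2:**
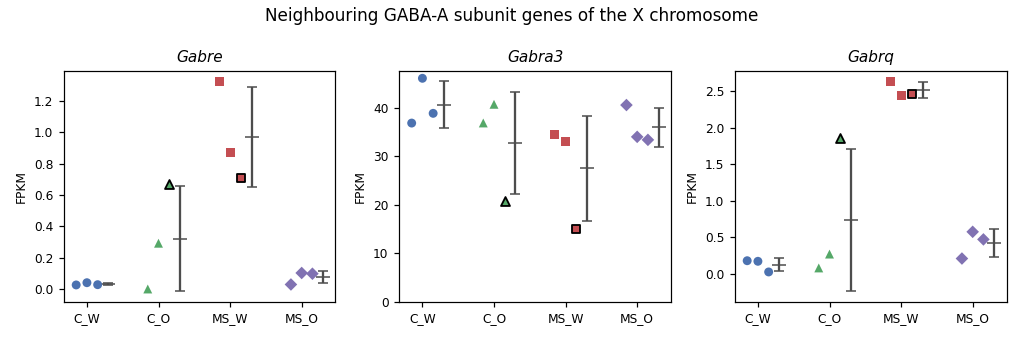
FPKM of Gabre, Gabra3 and Gabrq by group, with 1 point per mouse, the bars giving the mean ± SD of 3 mice, and outlined points for C_O72 and MS_W95. Gabre and Gabrq are highest in the 3 MS_W mice, while their neighbour Gabra3 is lowest in MS_W95 and C_O72.

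The C_W vs. MS_W comparison asks what CUMS changed in mice given water. In a limma fit of the 4 groups to log2(FPKM + 1), the log2 fold change (log2FC) of Gabrq was 1.65 (SE 0.29), and after Benjamini-Hochberg adjustment over all 21393 tested genes p was 0.125. For Gabre the limma log2FC was 0.92 (SE 0.17, adjusted p = 0.133). By limma 0 of the 43 members passed an adjusted p of 0.05, by edgeR 0 and by DESeq2 4 (among them Gabre, Gabrq and Grm8), against 1.82% of all genes by DESeq2. In limma 0.00467% of all tested genes did. Without C_O72 and MS_W95 both genes rose in MS_W by the adjusted limma test, Gabrq with a log2FC of 1.66 (SE 0.13, adjusted p = 0.00144) and Gabre with 1.02 (SE 0.12, adjusted p = 0.00919), where 1.15% of all genes passed. By edgeR without these 2 libraries 0 of the 43 members passed (smallest adjusted p = 0.0587). In limma, leaving out C_O72 alone gave adjusted p of 7.08e-04 and 0.0196 for Gabrq and Gabre, and leaving out C_O15 gave 0.0519 and 0.0394. Over all alternatives the adjusted p ranged from 7.08e-04 to 0.395 for Gabrq and from 0.00388 to 0.415 for Gabre. In the fit of the 4 groups the p-values rest on the spread of each gene between mice within all groups, also those not compared. Each group held 3 mice, and an exact permutation test of 3 against 3 cannot give a p below 0.1.

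Some hypothalamic and striatal markers were also higher in MS_W than in C_W at an unadjusted p under 0.05. Their summed levels were high in MS_W31 and MS_W75 and low in MS_W95. The summed FPKM of 8 hypothalamic markers was 3.63 to 12.97 in C_W, 2.74 to 20.4 in C_O, 5.15 to 126 in MS_W and 11.99 to 58.2 in MS_O. In MS_W it was 126, 115 and 5.15, and MS_W95, the last of these, also held the cerebellar and hindbrain markers given above. Gabrq and Gabre were at 2.47 and 0.709 in MS_W95 and at 1.86 and 0.668 in C_O72, which held such markers too. Among the hypothalamic markers Avp, which encodes vasopressin, was at 32.3, 59.3 and 0.185 in MS_W. Sim1, a regulator of hypothalamic neurons, was listed at 0.0001 in all 9 mice outside MS_W, while no gene of the list was under 0.1 in all 12 libraries. In the C_W vs. MS_W comparison 3 of the 7 hypothalamic markers tested were higher in MS_W at an unadjusted p under 0.05, against 6.71% of all genes, and 0 passed adjustment by limma. Without C_O72 and MS_W95, the setting in which Gabrq and Gabre passed, 4 of the 7 were higher and 2 passed adjustment, Avp (limma, log2FC 5.31, SE 0.60, adjusted p = 0.00709) and the oxytocin gene Oxt (limma, log2FC 4.45, SE 0.59, adjusted p = 0.0135). The summed FPKM of 6 markers of striatal projection neurons was 96.3, 46.2 and 50.1 in C_W, 158, 242 and 47.3 in C_O, 318, 479 and 60.1 in MS_W and 338, 168 and 135 in MS_O. In the C_W vs. MS_W comparison 2 of these 6 were higher in MS_W at an unadjusted p under 0.05 with all libraries, and without C_O72 and MS_W95 all 6 passed adjustment by limma, with a median log2FC of 2.69. In MS_W95 and C_O72 the serotonin transporter gene Slc6a4, a marker of brainstem serotonin neurons, was at 11.3 and 1.54 and at most 0.0638 elsewhere. The sum of the 6 midbrain monoamine markers was 2.65 to 13.5 in C_W, 1.34 to 12.5 in C_O, 13.4 to 45.96 in MS_W and 11.1 to 66.7 in MS_O, and 0 of the 6 had an unadjusted p under 0.05 between MS_W and C_W. The part of these cells in the levels of Gabrq and Gabre was not tested, and in bulk samples more cells of a type and more RNA per cell cannot be told apart.

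Among the 43 members tested, 9 had an unadjusted p under 0.05 in the C_W vs. MS_W comparison, against 10.5% of all tested genes. Of the 9, 7 were higher in MS_W (among them Gabrq, Gabre, Grik2, Grik1, Grin3a and Gria1), against 6.71% of all genes, and 2 were lower (Grm8 and Grm2), against 3.79%. With libraries centred on their median the split was 6 higher and 3 lower, against 3.19% and 6.94% of all genes. By the study's criteria for differentially expressed genes (DEGs), an unadjusted p under 0.05 with an absolute log2 ratio of group means above 1, 4 members were DEGs (among them Gabrq, Gabre and Grm2), against 4.59% of all genes. The values of the groups did not overlap for 18 members, against 24.6% of all genes. Of the 18, 12 were higher in MS_W, against 16.3%, and 6 lower, against 8.22%. The median log2FC over the members was -0.12 and over all tested genes 0.06. Without C_O72 and MS_W95 it was 0.06 over the members, and 17 of them had an unadjusted p under 0.05, against 15.4% of all genes.

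Of the ion channel genes for glutamate, Grik2, the kainate receptor subunit GluK2, had the smallest p between MS_W and C_W. It was at 3.15, 3.41 and 3.23 in C_W, 2.76, 3.41 and 2.20 in C_O, 5.21, 5.31 and 5.06 in MS_W and 3.70, 4.87 and 4.56 in MS_O. Each of the 6 CUMS mice was above each of the 6 mice without CUMS, and the MS_W mice were above the MS_O mice. The limma log2FC of MS_W against C_W was 0.54 (SE 0.13, adjusted p = 0.271, over the alternatives 0.0692 to 0.616). Gria1 was at 51.8, 60.7 and 51.4 in C_W, 54.8, 56.1 and 32.5 in C_O, 83.3, 73.7 and 74.4 in MS_W and 62.4, 84.4 and 81.7 in MS_O. Here too each CUMS mouse was above each mouse without CUMS (limma, MS_W against C_W, log2FC 0.49, SE 0.20, adjusted p = 0.443). The share of all genes that separate the mice in this way was not computed. Gria1 held 49.5% to 67.5% of the summed FPKM of the 4 AMPA receptor genes in 10 libraries, 52.9% in C_O72 and 56.7% in MS_W95.

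Grin3a, an NMDA receptor subunit that lowers calcium entry, was at 2.26, 3.00 and 2.87 in C_W and 4.87, 4.05 and 3.81 in MS_W, against 2.36, 3.85 and 4.001 in C_O and 2.51, 2.91 and 3.37 in MS_O. The MS_W mice were above the C_W mice and above the MS_O mice without overlap (limma, MS_W against C_W, log2FC 0.50, SE 0.17, adjusted p = 0.360). Grik1, the kainate subunit GluK1, was at 1.51, 1.66 and 1.40 in C_W and 2.07, 2.20 and 3.30 in MS_W (limma, log2FC 0.47, SE 0.16, adjusted p = 0.360). Grin1 went the other way, at 57.2, 57.3 and 48.1 in C_W and 45.5, 43.5 and 31.4 in MS_W, with 58.3, 47.7 and 31.4 in C_O and 48.8, 50.9 and 54.1 in MS_O. Its MS_W values lay below all C_W values (limma, log2FC -0.44, SE 0.21, adjusted p = 0.489), and its lowest values were those of C_O72 and MS_W95. Exons of Grin1 overlap 1307 bases of the opposite-strand gene Grin1os, and those of Grm2 overlap 470 bases of Gm28111, and whether the counting used strand is not given in the sources used here.

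**Figure D3:**
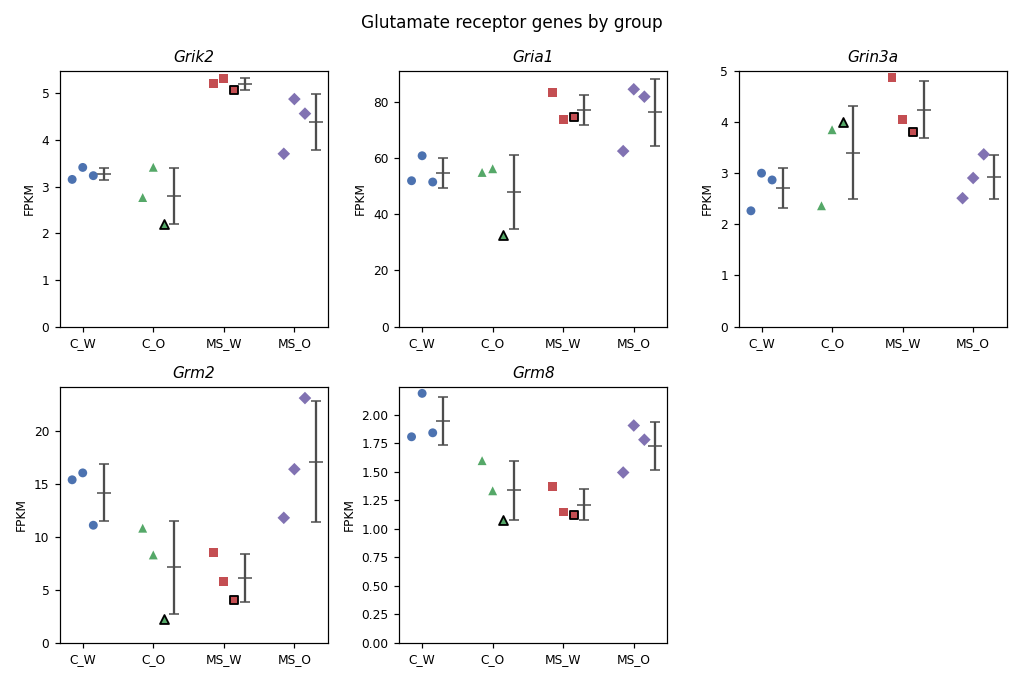
FPKM of 5 glutamate receptor genes by group, with 1 point per mouse, the bars giving the mean ± SD of 3 mice, and outlined points for C_O72 and MS_W95. Grik2 and Gria1 are higher in each CUMS mouse than in each mouse without CUMS, and Grm2 is low in C_O and MS_W and higher in C_W and MS_O.

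The metabotropic receptor genes Grm2 and Grm8 were the 2 members that were lower in MS_W at an unadjusted p under 0.05. Grm2, a presynaptic receptor that restrains glutamate release, was at 15.4, 16.1 and 11.1 in C_W, 10.8, 8.31 and 2.23 in C_O, 8.51, 5.77 and 4.02 in MS_W and 11.8, 16.4 and 23.1 in MS_O. All MS_W and all C_O mice were below all C_W mice, and all MS_O mice were above all MS_W and all C_O mice. The limma log2FC was -1.13 in MS_W against C_W (SE 0.44, adjusted p = 0.426). Grm8, another presynaptic receptor, of group III, was likewise lower in C_O and MS_W, with 1.81, 2.19 and 1.84 in C_W, 1.60, 1.33 and 1.08 in C_O, 1.37, 1.15 and 1.12 in MS_W and 1.49, 1.905 and 1.78 in MS_O (limma, MS_W against C_W, log2FC -0.41, SE 0.12, adjusted p = 0.304). Both genes were lowest within their groups in C_O72 and MS_W95.

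Markers of cortical excitatory neurons and of the olfactory bulb also differed between the groups. The summed FPKM of the 8 cortical markers was 343, 393 and 340.4 in C_W, 289.8, 390.2 and 36.4 in C_O, 144, 136 and 49.0 in MS_W and 247, 232 and 274 in MS_O, and 5 of the 8 were lower in MS_W than in C_W at an unadjusted p under 0.05. In MS_O against C_O 0 of the 8 had an unadjusted p under 0.05 (median log2FC -0.14). Without C_O72 and MS_W95, 4 of the 8 were lower in MS_O than in C_O by limma at that threshold (median log2FC -0.65), with 0 past adjustment. In the same setting 6 of the 8 were lower in MS_W than in C_W (median log2FC -0.92). The summed FPKM of 6 olfactory bulb markers was 55.3, 69.6 and 10.5 in C_W, 7.80, 30.4 and 4.38 in C_O, 84.997, 48.0 and 8.65 in MS_W and 39.7, 227 and 230.1 in MS_O, and all 6 were higher in MS_O than in C_O at an unadjusted p under 0.05. In MS_W against C_W 0 of the 6 had an unadjusted p under 0.05 (median log2FC -0.19). Of all tested genes, 3.79% were lower in MS_W than in C_W and 6.69% higher in MS_O than in C_O at that threshold. Without C_O72 and MS_W95, 15.4% and 13.6% passed it in these comparisons in either direction. No gene of either marker list was under 0.1 in all 12 libraries. The part of these cells in the levels of Grm2 and Grm8 was not tested.

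**Figure D4:**
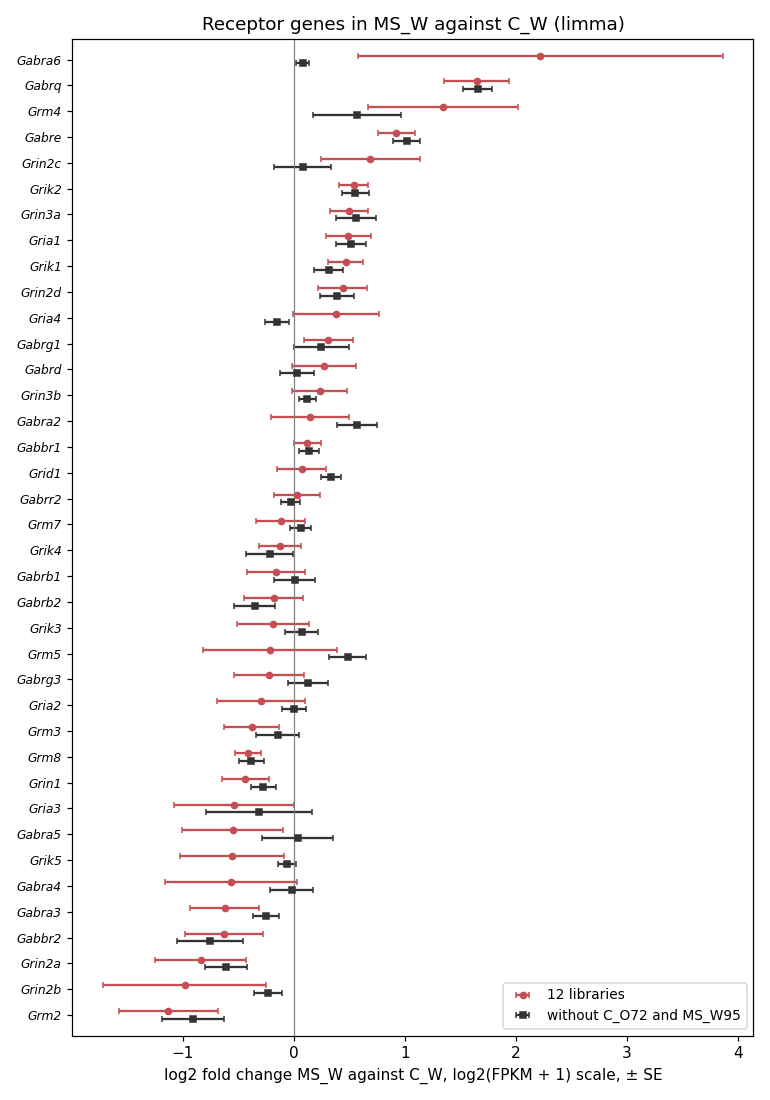
limma log2 fold change of MS_W against C_W for the tested members reported here on the log2(FPKM + 1) scale, sorted by its value in the 12 libraries (circles), beside the value without C_O72 and MS_W95 (squares), with bars for the SE. Without the 2 libraries Gabra6 goes from 2.22 to 0.08 and Grin2c from 0.69 to 0.08, while Gabrq goes from 1.65 to 1.66 and Grik2 from 0.54 to 0.55.

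The C_W vs. C_O comparison asks what krill oil changed without stress. By limma, edgeR and DESeq2 0 members passed an adjusted p of 0.05, in limma against 0% of all genes. The smallest adjusted p was 0.908 by limma, 0.936 by edgeR and 0.135 by DESeq2. Only Grm8 (limma, log2FC -0.34, SE 0.12, adjusted p = 0.908) and Grm2 (limma, log2FC -1.08, SE 0.44, adjusted p = 0.908) had an unadjusted p under 0.05, 2 of 43 members against 3.55% of all genes in either direction and 2.04% lower. Both were lower in C_O without overlap, against 5.34% of all genes, and 3 members in all did not overlap, against 9.42%. The 1 higher in C_O, against 4.08% of all genes, was Grin3b, an NMDA subunit gene whose exons overlap 1059 bases of the opposite-strand gene Tmem259 and which was at 0.110, 0.117 and 1.38 in C_O and 0.0606, 0.0573 and 0.0313 in C_W. By limma 0 members were DEGs, against 1.76% of all genes. On the estimated counts the calls turned to the other direction: by edgeR 4 members were higher and 1 lower at an unadjusted p under 0.05, against 2.94% and 1.52% of all genes, and 4 were DEGs, against 2.44%. By DESeq2 3 were higher and 1 lower, against 3.84% and 1.98%, and 3 were DEGs, against 2.86%. The DEGs by both tools were Gabre, Gabrq and Grin3b, with Gabra6 by edgeR, which within C_O were all highest in C_O72, and the member lower by both was Grm8. The median log2FC over the members was -0.28, against 0.00 over all genes, and -0.03 without C_O72 and MS_W95. Then 2 of 43 members had an unadjusted p under 0.05, against 4.06% of all genes.

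The C_O vs. MS_O comparison asks what CUMS changed in mice given krill oil. Grik2 (limma, log2FC 0.51, SE 0.13, adjusted p = 0.479), Gria1 (limma, log2FC 0.69, SE 0.20, adjusted p = 0.479), Grm2 (limma, log2FC 1.31, SE 0.44, adjusted p = 0.479) and the kainate subunit gene Grik3 were higher in MS_O at an unadjusted p under 0.05. These were 4 of 43 members, against 8.88% of all genes in either direction and 6.69% higher, 0 passed adjustment by limma, edgeR or DESeq2 (in limma 0.00467% of all genes did), and Grm2 was the only DEG among them, against 3.57%. Grik2 and Gria1 were thus higher with CUMS in both arms of the study, with C_O72 the lowest library for both. Of all genes, 16.3% were higher without overlap in the water arm and 8.9% in the krill oil arm. The share higher in both arms was not computed. The groups did not overlap for 5 members, all higher in MS_O, against 12.2% of all genes in either direction and 8.9% higher. The median log2FC over the members was 0.17, against 0.03 over all genes, and -0.04 without C_O72 and MS_W95, where 8 of 43 members had an unadjusted p under 0.05, against 13.6% of all genes.

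The MS_W vs. MS_O comparison asks what krill oil changed in stressed mice. Gabre (limma, log2FC -0.86, SE 0.17, adjusted p = 0.292) and Gabrq (limma, log2FC -1.32, SE 0.29, adjusted p = 0.376) were lower in each MS_O mouse than in each MS_W mouse, and Grm2 was higher (limma, log2FC 1.35, SE 0.44, adjusted p = 0.769). With Grin3a, lower, and Grm8, higher, 5 of 43 members had an unadjusted p under 0.05, against 6.09% of all genes. Of these, 2 were higher in MS_O, against 2.63%, and 3 lower, against 3.46%. Gabre, Gabrq and Grm2 were DEGs, against 2.81% of all genes. By limma, edgeR and DESeq2 0 passed adjustment, in limma against 0.00467% of all genes, but without C_O72 and MS_W95 Gabrq (log2FC -1.33, SE 0.13) and Gabre (log2FC -0.96, SE 0.12) fell by limma at adjusted p of 0.00616 and 0.0273, where 0.271% of all genes passed. In that setting 4 of the 7 hypothalamic markers tested were also lower in MS_O at an unadjusted p under 0.05, with a median log2FC of -1.76 over the list, and Avp (limma, log2FC -4.19, SE 0.60, adjusted p = 0.0420) and Oxt (limma, log2FC -4.14, SE 0.59, adjusted p = 0.0420) fell. Their part in the result was not tested. Over all alternatives the adjusted p of Gabrq and Gabre ranged from 0.00257 to 0.980 and from 0.0273 to 0.845. The groups did not overlap for 10 members, against 12.3% of all genes. Of the 10, 4 were higher in MS_O, against 4.64%, and 6 lower, against 7.66%. Without C_O72 and MS_W95, 12 of 43 members had an unadjusted p under 0.05, against 8.54% of all genes. By edgeR without these libraries 0 of the 43 passed adjustment (smallest adjusted p = 0.318). This comparison shares the MS_W mice with the C_W vs. MS_W comparison, so the high values of Gabre and Gabrq in those mice enter both.

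The interaction asks whether CUMS changed a gene differently with and without krill oil. Gabre (limma difference of log2FC -1.19, SE 0.23, adjusted p = 0.352), Gabrq (-1.81, SE 0.41, adjusted p = 0.462) and Grin3a had a lower log2FC with CUMS in the krill oil arm than in the water arm at an unadjusted p under 0.05. Grm2 (2.44, SE 0.63, adjusted p = 0.597) and Grm8 (limma, log2FC 0.64, SE 0.17, adjusted p = 0.618) had a higher one, and for both C_O72 and MS_W95 were the lowest of their groups. These 5 of 43 members, 2 higher and 3 lower, compare with 7.23% of all genes, 3.6% higher and 3.63% lower, and 0 passed adjustment by limma, 0 by edgeR and 3 by DESeq2 (Gabre, Gabrq and Grm8), against 0.706% of all genes by DESeq2 and in limma 0% of all genes. Without C_O72 and MS_W95, Gabrq passed by limma (-1.39, SE 0.19, adjusted p = 0.0452, over all alternatives 0.0145 to 1), where 0.145% of all genes did. In that setting 4 of the 7 hypothalamic and 6 of the 6 striatal markers had a lower log2FC in the krill oil arm at an unadjusted p under 0.05, with 0 past adjustment, and their part in the result was not tested. By unadjusted p 8 of 43 members then passed, against 7.51% of all genes. By edgeR without these libraries 0 of the 43 passed adjustment (smallest adjusted p = 0.323).

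The make-up of several receptor families in C_O72 and MS_W95 was unlike that of the other libraries. Gabra6, whose values were looked at after the libraries were seen to differ, was at 23.9 in C_O72 and 91.3 in MS_W95 and at most 0.129 in the other 10 libraries. It made up 28.7% and 54.3% of the summed FPKM of the 6 alpha genes there and at most 0.119% elsewhere. The beta2 subunit gene Gabrb2 was at 2.63 in C_O72, its lowest value, at 7.36 in MS_W95, its highest, and at 3.59 to 7.14 in the others. In all, 16 of the 47 members lie in 5 runs of receptor genes on a chromosome, the chromosome X run included, with gaps of at most 1000000 bases.

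Grin2b, the NMDA subunit GluN2B, was at 0.980 and 1.05 in C_O72 and MS_W95 and at 7.90 to 11.8 in the others, and its share among the 4 GluN2 genes was 4.71% and 2.48% against 27.8% to 38.3%. Grin2c, the GluN2C subunit known from cerebellar granule cells, took 66.3% and 82.1% against 25.8% to 45.9%. Among the 4 AMPA receptor genes Gria4 took 35.2% and 31.4% against 10.4% to 15.1%. These shares need no comparison of scale between libraries, since each is taken within 1 library. The part of cerebellar cells in them was not tested.

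**Figure D5:**
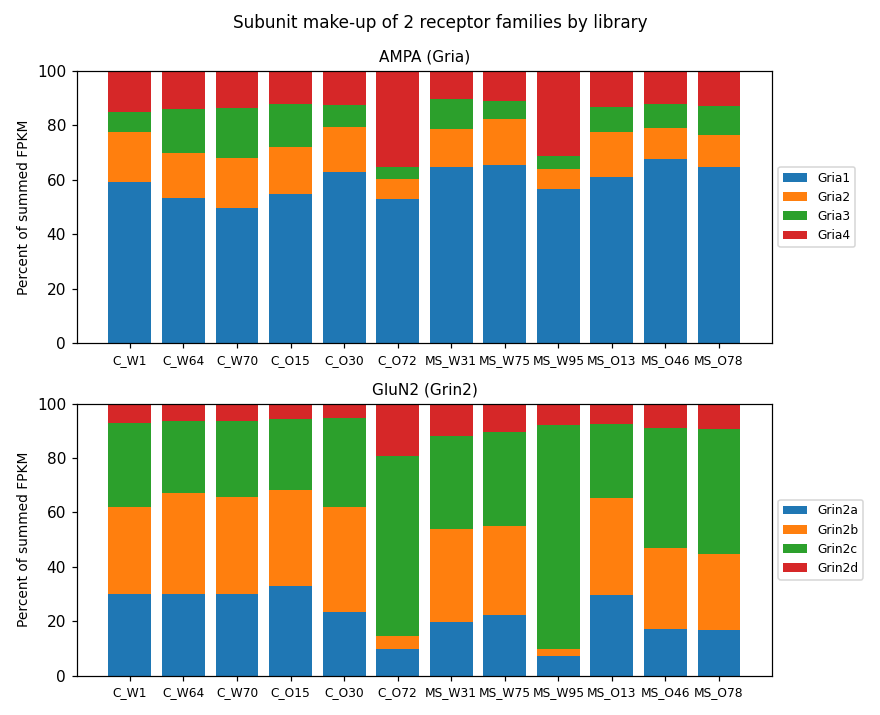
Percent of the summed FPKM held by each gene of the AMPA and GluN2 receptor families (stacked bars) in the 12 libraries (horizontal axis). C_O72 and MS_W95 differ from the other 10 by their larger shares of Gria4 and Grin2c and their smaller share of Grin2b.

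The metabotropic receptor gene Grm4 had the highest mean over the 12 libraries of its subfamily (13.2, against 11.1 for Grm2 and 11.02 for Grm3), with MS_W95 far above the rest, while in C_W its mean of 6.34 was below those of Grm2 (14.2) and Grm3 (12.8). It was at 8.02, 6.70 and 4.29 in C_W, 4.95, 5.15 and 18.3 in C_O, 10.2, 9.09 and 52.4 in MS_W and 6.02, 16.7 and 16.6 in MS_O. MS_O46 and MS_O78 were thus also high for Grm4, next to their high olfactory bulb markers, whose part in it was not tested. Grid1 was at 9.91, 10.2 and 10.4 in C_W, 9.95, 10.8 and 6.76 in C_O, 12.3, 14.0 and 7.09 in MS_W and 11.2, 10.2 and 9.54 in MS_O, so that MS_W31 and MS_W75 were highest and the libraries C_O72 and MS_W95 lowest. Grik5 was at 40.0, 44.2 and 38.8 in C_W, 38.6, 44.9 and 12.8 in C_O, 39.1, 39.3 and 13.3 in MS_W and 46.2, 45.0 and 44.8 in MS_O, lowest again in those 2. Gabrd, the delta subunit found outside synapses in granule cells and thalamus, was at 26.6, 21.3 and 22.8 in C_W, 27.2, 26.3 and 12.8 in C_O, 20.6, 27.8 and 40.4 in MS_W and 28.9, 22.4 and 25.6 in MS_O. It was highest in MS_W95 and lowest in C_O72, as was Gabrb2. In both libraries together, 19 of the 43 members tested were below all other 10 libraries, against 11.7% of all tested genes, and 7 were above, against 16.3%. Those below included 4 of the 6 alpha genes (Gabra2, Gabra3, Gabra4 and Gabra5), Grin1, Grin2a and Grin2b, and 5 metabotropic receptor genes (Grm2, Grm3, Grm5, Grm7 and Grm8). Those above included Gabra6, Gabrr2, Gria4, Grin2d, Grin3b and Grm4.

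Further members are given by their ranges. In the 10 libraries other than C_O72 and MS_W95, the alpha genes Gabra2, Gabra4 and Gabra5 lay at 2.51 to 5.35, 10.1 to 16.9 and 16.6 to 40.4, the beta1 gene Gabrb1 at 3.17 to 6.64 and the gamma genes Gabrg1 and Gabrg3 at 1.41 to 3.56 and 1.44 to 2.68. The AMPA subunit genes Gria2, Gria3 and Gria4 lay at 14.3 to 19.2, 6.42 to 19.0 and 11.1 to 16.5, and Gria2 encodes the subunit that limits calcium entry. The kainate subunit genes Grik3 and Grik4 lay at 12.02 to 18.3 and 1.903 to 3.81, and the NMDA subunit genes Grin2a and Grin2d at 5.32 to 10.8 and 1.67 to 3.37. The metabotropic receptor genes Grm3, Grm5 and Grm7 lay at 9.16 to 13.9, 6.93 to 12.2 and 6.36 to 8.05. Grm3 is a group II receptor like Grm2, Grm5 a group I receptor, and Grm7 a presynaptic group III receptor.

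The genes around the receptors were followed with lists for 7 groups. Of all tested genes, 6.71% were higher and 3.79% lower in MS_W than in C_W by limma at an unadjusted p under 0.05. Of 7 genes of GABA synthesis, vesicle loading and uptake, 4 were higher in MS_W than in C_W at an unadjusted p under 0.05 and 0 passed adjustment, with a median log2FC of 0.84 against 0.06 over all genes. Among the 4 were Gad2, a GABA-synthesising enzyme (25.8, 24.8 and 23.6 in C_W and 60.4, 67.0 and 33.3 in MS_W, limma, log2FC 1.02, SE 0.24, adjusted p = 0.252) with Abat and Slc32a1. Without C_O72 and MS_W95, Gad2 (limma, log2FC 1.33, SE 0.17, adjusted p = 0.0130) and Abat, the enzyme that breaks GABA down (limma, log2FC 0.78, SE 0.14, adjusted p = 0.0433), passed. Of 9 genes of glutamate supply and uptake, 0 were higher and 2 lower in MS_W at an unadjusted p under 0.05. One of them, the vesicular glutamate transporter gene Slc17a7, itself among the cortical markers, passed without C_O72 and MS_W95 (limma, log2FC -1.39, SE 0.23, adjusted p = 0.0344). Of 13 AMPA and kainate receptor auxiliary subunits, 2 were higher and 0 lower in MS_W. They were Shisa6 and Cacng4, a regulator of AMPA receptor traffic (8.44, 6.67 and 5.98 in C_W and 17.0, 18.9 and 10.05 in MS_W, limma, log2FC 0.99, SE 0.21, adjusted p = 0.210), and Cacng4 passed without C_O72 and MS_W95 (limma, log2FC 1.25, SE 0.16, adjusted p = 0.0123). Among 9 scaffold genes 0 were higher and 1 lower, among 8 GABA-A anchoring genes 1 was higher and 0 lower, among 4 KCTD genes 1 was higher and 0 lower, and among 4 cerebellins 0 were higher and 1 lower. In the C_O vs. MS_O comparison 4 of 13 auxiliary subunits, 3 of 9 scaffold genes and 2 of 7 GABA synthesis genes (Gad1 and Gad2) were higher, against 6.69% of all genes, with 0 past adjustment. Without C_O72 and MS_W95 the median log2FC went from 0.51 to 0.22 for the auxiliary subunits and from 0.59 to 0.10 for the scaffold genes. For the GABA synthesis genes it went from 0.49 to 0.79. The striatal and hypothalamic markers that passed without C_O72 and MS_W95 moved in the same setting as Gad2, Abat, Cacng4 and Slc17a7, and their part in these values was not tested.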

How the data were processed

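RNA of the brain of 12 mice was sequenced from poly(A)-selected, dUTP-marked libraries. According to the methods and the submitters' processing notes, reads were trimmed with cutadapt 1.9, aligned to mm10 with HISAT2 2.0.4 and assembled with StringTie 1.3.4d. The authors deposited 1 table of 55385 genes with FPKM values, and with whole-number estimated counts per gene for the same libraries (50912906 to 75678721 in total). Groups follow the labels. FPKM was analysed as log2(FPKM + 1), so fold changes of low genes are understated, for the 21393 genes whose FPKM averaged 0.1 or more over the libraries. One limma 3.58.1 fit (R 4.3.3, trend) of the 4 groups gave each comparison, with Benjamini-Hochberg adjustment over all genes. The fitting code was tested on simulated data. Alternatives were edgeR 4.0.16 and DESeq2 1.42.0 on the estimated counts, other pseudocounts, filters, scaling and samples, and each library left out. The members, lists and tests were chosen with earlier results of these data known. Values per library are given for members past an adjusted p of 0.05, called DEG or among the 3 smallest p-values of a comparison, and for the most abundant of each subfamily. The others named (among them Gabra3, Gabra6, Grik1, Grin2b, Grin2c, Grin3a and Grin3b) were chosen after their values were seen. Promoters are RefSeq sequences (GRCm38.p6), found for 32 of 47 members. Receptor protein sequences were not used here. Some members and genes of the lists are not reported here.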

Additional observations from a re-analysis of the deposited data

Results flagged for a closer look

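Grm2 had differences of opposite sign in the water and krill oil arms. Each MS_W mouse was below each C_W mouse while each MS_O mouse was above each C_O mouse, and the CUMS by krill oil interaction had a log2 difference of 2.44 (limma, SE 0.63, adjusted p = 0.597, over the alternatives 0.0635 to 1). Read the other way, krill oil went with lower Grm2 in each unstressed mouse and with higher Grm2 in each stressed mouse, which is the same interaction. Grm8 was lower in each C_O than in each C_W mouse and higher in each MS_O than in each MS_W mouse, with an interaction of 0.64 (limma, SE 0.17, adjusted p = 0.618). Neither passed adjustment by limma. C_O72 and MS_W95, the 2 libraries with other regions' markers, were the lowest of C_O and MS_W for Grm2 (2.23 and 4.02) and for Grm8 (1.08 and 1.12). Both groups enter the interaction, and the part of these libraries in it was not tested. Over the alternatives the log2 difference of Grm2 ranged from 1.645 to 2.807. No test for single outlying samples was run, since each group held 3 mice, but the alternatives include fits with each library left out.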

How the results depend on the processing

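The log2 fold changes of the 17 pairs of member and comparison followed had the same direction in all 348 values computed under 21 alternatives. In limma, another filter or a library left out of a group not compared cannot change the log2FC between the groups compared. The pairs were also picked from these data by p or DEG criteria, so the shared direction is no measure of robustness. Of the 348 values, 18 passed the adjusted threshold where the value reported did not. By adjusted p, the number of members called between MS_W and C_W was 0, against 4 by DESeq2, 1 when only the groups compared were fitted and 2 without C_O72 and MS_W95. Between MS_W and MS_O it was 0 against 2 without these libraries, and for the interaction 0 against 3 by DESeq2 and 1 without them. By edgeR without them it was 0 in every comparison. By unadjusted p, the counts without C_O72 and MS_W95 were 17, 8, 12 and 8 for C_W vs. MS_W, C_O vs. MS_O, MS_W vs. MS_O and the interaction, and by edgeR without them (added after seeing the data) 19, 10 and 10 for C_W vs. MS_W, C_O vs. MS_O and MS_W vs. MS_O. For C_W vs. C_O they were 4 by DESeq2, 5 by edgeR, 1 with no filter and 1 with only the groups compared. With a mean FPKM of at least 1 they were 3 for MS_W vs. MS_O and 3 for the interaction, and the interaction had 8 by DESeq2 and 8 by edgeR. DEGs for C_W vs. MS_W, C_W vs. C_O, C_O vs. MS_O and MS_W vs. MS_O were 4, 0, 1 and 3 by limma, 7, 4, 3 and 5 by edgeR, 6, 3, 3 and 3 by DESeq2, and 2, 0, 1 and 4 by limma without C_O72 and MS_W95. For C_O vs. MS_O the split by unadjusted p was 4 higher and 0 lower by limma but 3 higher and 2 lower by edgeR and by DESeq2. Leaving out 1 library at a time gave, by adjusted p, 0 to 2 members for C_W vs. MS_W (1 without C_O15, 2 without C_O72), 0 to 0 for C_W vs. C_O, 0 to 0 for C_O vs. MS_O, 0 to 2 for MS_W vs. MS_O (2 without C_O72) and 0 to 1 for the interaction (1 without C_O15 and 1 without C_O72). By unadjusted p it gave 6 to 15 (15 without C_O72), 0 to 14 (14 without C_O15, 4 without C_O30, 0 without C_O72 and 0 without C_W64), 2 to 7 (7 without C_O15, 2 without MS_O78), 3 to 7 (3 without MS_O46) and 4 to 9 (9 without C_O15 and 9 without MS_W31). A library left out of a group not compared enters these counts only through the spread that the fit shares over all groups. For settings whose share over all genes is not given above, the counts in this section are no result about the receptor genes. The cause of the other changes was not tested. No paired analysis was possible because the mouse numbers are not shared between the groups. Bulk brain libraries with 3 mice per group, of which 2 libraries hold other regions' markers, limit all comparisons. The other 10 libraries were not alike in regional markers either. Among them the summed FPKM of 3 choroid plexus markers was 834, 811 and 617 in C_W1, C_O15 and MS_O13 and at most 60.8 in the rest. That of 5 hippocampal markers was 35.9 to 94.2 and that of the 6 olfactory bulb markers 7.80 to 230.1. The part of these differences in the results was not tested.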

Other observations

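Gria3, an AMPA receptor subunit gene on chromosome X, varied within the groups. It was at 6.42, 18.2 and 19.0 in C_W, 16.0, 7.48 and 2.73 in C_O, 14.2, 7.51 and 6.20 in MS_W and 9.53, 11.2 and 13.3 in MS_O, so that C_W1 held far less than C_W64 and C_W70. Gabbr2 was also uneven, at 49.4, 54.2 and 51.7 in C_W, 60.2, 49.8 and 24.5 in C_O, 29.9, 30.6 and 39.5 in MS_W and 48.9, 19.7 and 27.2 in MS_O, while its partner Gabbr1 ranged from 75.05 to 103. All MS_W mice lay below all C_W mice for Gabbr2 (limma, log2FC -0.63, SE 0.35, adjusted p = 0.542).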
